A study of Anopheles gambiae with 104 samples.

Results

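Actin and glyceraldehyde-3-phosphate dehydrogenase (Gapdh) were followed through 48 h in female malaria mosquitoes, Anopheles gambiae. The array carries 6 probe sets for these transcripts, 3 for actin and 3 for Gapdh, placed at the 3′ end, in the middle and at the 5′ end of each, out of 22761 probe sets in all. They were found by the start of their array names and are AFFX-Ag-Act-3_s_at, AFFX-Ag-Act-M_s_at and AFFX-Ag-Act-5_s_at for actin and AFFX-Ag-Gapdh-3_at, AFFX-Ag-Gapdh-M_at and AFFX-Ag-Gapdh-5_at for Gapdh. The 3 actin names end in a suffix that Affymetrix gives to probe sets shared by several related transcripts, so the actin values cannot be assigned to a single actin gene.

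Mated females of the Pimperena strain (S form), 7 to 9 days old at the start and never blood fed, were kept under light and dark in alternation (LD) or in constant dark (DD). LD days had 11 h of full light with dawn and dusk ramps of 1 h, and DD had no light. At each time point 20 to 30 mosquitoes were pooled, and their heads (with mouthparts and antennae) were parted from bodies (with the appendages). Each of the 4 arms (heads LD, heads DD, bodies LD, bodies DD) held 13 time points 4 h apart with 2 arrays each. LD samples run from ZT12, when lights went off, up to ZT60 (ZT, zeitgeber time). DD samples run from CT0, which fell 12 h after lights had last gone off, up to CT48 (CT, circadian time). All groups share strain, sex, mating and diet, and each pool mixes many cell types. Whether both arrays of a time point had their own pool is not stated in the labels, so their spread may be technical. The probe sets are not paired with genes here, so glycolytic and cytoskeletal gene lists could not be read and tissue markers could not be checked.

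Actin is the protein of microfilaments and, with myosin, of the contractile apparatus, and flight and leg muscle hold large amounts of it. Gapdh is the glycolytic enzyme that oxidises glyceraldehyde phosphate and yields NADH. Both transcripts are abundant in most cells and are often taken as reference genes in expression studies, including studies of daily rhythms, where a reference should hold its level through the day. On arrays of this type, complementary DNA is primed from the poly-A tail, so the 3′ end of a transcript is copied first. A broken transcript or a short copy loses 5′ signal before 3′ signal. The 3′ probe sets are therefore read first below, and the middle and 5′ sets serve mainly to compare the ends.

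Values are log2 levels after GCRMA, so a difference of 1 is 2-fold. Array medians lay between 2.89 and 3.18. Anopheles probe sets were kept for testing when their tissue mean exceeded the 95th percentile of the Plasmodium falciparum probe sets on the same arrays (3.75 in heads, 3.78 in bodies). All 6 actin and Gapdh probe sets lay above that mark. Their lowest array read 5.12, for Gapdh 5′ in heads at CT44. The 13 actin and Gapdh control probe sets for human and P. falciparum averaged from 2.27 to 5.79 by arm. Libraries at CT44 in heads stand apart at their 5′ ends, and 5′ results in heads in DD are given with and without them. Tests were limma fits over all kept probe sets and the 6. P-values were adjusted by Benjamini-Hochberg over 7194 probe sets in heads and 7331 in bodies. Comparisons between tissues took 8444, the probe sets kept in either tissue and the 6. The threshold was an adjusted p of 0.05. P-values describe the spread of time points around a fit, or of the 2 arrays around a time point.

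The actin 3′ level was lower in heads than in bodies at every hour as deposited, and this direction turned under quantile normalization of all arrays. In heads in LD it averaged 12.57 ± 0.22 (SD, n = 13 time points), from 12.20 at ZT16 through a median of 12.61 to 12.90 at ZT24. In heads in DD it averaged 12.73 ± 0.12, from 12.48 at CT12 through 12.70 to 12.98 at CT44. Bodies in LD averaged 13.03 ± 0.15, from 12.79 at ZT44 through 13.03 to 13.36 at ZT24. Bodies in DD stood highest, at 13.13 ± 0.17, from 12.78 at CT0 through 13.17 to 13.39 at CT4. The ranges of the 4 arms overlapped, but at matched hours heads were below bodies at 13 of 13 time points in LD and in DD. The fitted head minus body difference was −0.45 ± 0.04 (SE) in LD, a 1.36-fold difference with an adjusted p of 1.61e-07 (limma), and −0.41 ± 0.05 in DD (1.33-fold, adjusted p = 3.39e-06, limma).

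These tissue differences have to be read against all transcripts. As deposited, 93% of the tested probe sets differed by tissue in LD (33.7% higher in heads, 59.3% lower) and 92.5% in DD (32% higher, 60.5% lower), and the median of all kept Anopheles probe sets was itself −0.52 in both regimes. Actin 3′ lay near the middle of that distribution, with 51.7% of probe sets further toward bodies in LD and 53.2% in DD. Quantile normalization moved the median by 0.48 in LD and 0.56 in DD, and gave actin 3′ differences of 0.32 and 0.40, higher in heads. Centring each array on the median of the probe sets kept in either tissue gave 0.04 (adjusted p = 0.496, limma) and 0.19. In these bulk samples, fewer cells of a type and less RNA per cell cannot be told apart.

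Gapdh 3′ was also lower in heads than in bodies as deposited, more so in LD than in DD. Under quantile normalization this direction turned in DD, and the difference in LD was lost (adjusted p = 0.942, limma). Heads in LD averaged 12.72 ± 0.07 (SD, n = 13), from 12.60 at ZT36 through a median of 12.74 to 12.83 at ZT56. Heads in DD averaged 12.60 ± 0.14, from 12.32 at CT40 through 12.58 to 12.90 at CT44. Bodies in LD averaged 13.49 ± 0.29, from 13.08 at ZT32 through 13.47 to 14.24 at ZT24. The order of the arms was therefore not that of actin, since bodies in DD averaged 12.89 ± 0.09, from 12.67 at CT44 through 12.89 to 13.02 at CT36. Every body LD time point lay above every time point of each other arm. Heads and bodies in DD overlapped, and so did heads in LD and heads in DD.

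The Gapdh 3′ head minus body difference was −0.79 ± 0.06 in LD (1.73-fold, adjusted p = 2.06e-08, limma) and −0.30 ± 0.06 in DD (1.23-fold, adjusted p = 0.000106, limma). Heads were lower at 13 of 13 time points in LD and at 12 of 13 in DD, the exception being CT44. Under quantile normalization the LD difference was 0.00493 (adjusted p = 0.942, limma) and the DD difference 0.54, higher in heads. The change of the Gapdh 3′ difference with regime kept its direction and its call under both scalings. Head minus body was lower in LD than in DD by −0.49 ± 0.08 for Gapdh 3′ (adjusted p = 1.11e-05, limma), and by −0.32 ± 0.12 for the middle set (adjusted p = 0.0176), while 77.4% of all probe sets passed this test, 36.5% in that direction and 40.9% in the other. For actin 3′ the same quantity was −0.03, with a 95% interval from −0.17 to 0.11 (adjusted p = 0.677, limma).

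**Figure D1:**
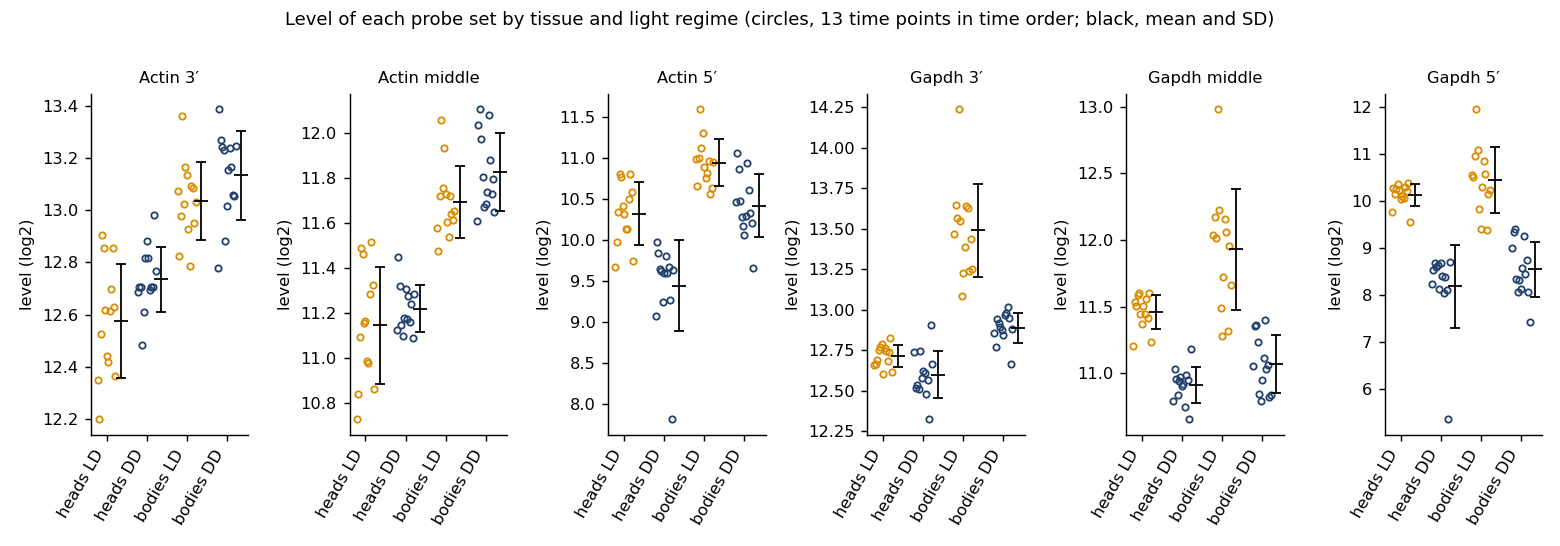
Log2 level of each probe set in the 4 arms, 1 circle per time point (mean of 2 arrays, in time order; orange LD, blue DD), with the arm mean and SD over 13 time points in black. The vertical scale differs between panels. Bodies in LD stand apart for Gapdh 3′ at 13.08 to 14.24, and the single low circle of Gapdh 5′ in heads in DD is CT44 at 5.37. The order of heads and bodies turns under quantile normalization for the 3′ and middle sets, for Gapdh 3′ in LD only to 0.00493.

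Within a tissue, the light regime went with opposite small differences of the 3′ ends in heads. In heads, actin 3′ was lower in LD than in DD by −0.14 ± 0.04 (1.10-fold, adjusted p = 0.0049, limma), and Gapdh 3′ was higher by 0.13 ± 0.04 (1.09-fold, adjusted p = 0.0156). Of all tested probe sets in heads 73% passed this test, 29.5% as higher in LD and 43.5% as lower, and 75.6% of kept Anopheles probe sets differed by more than actin 3′ did. Neither of these head calls held on replicate 2 arrays alone, where the differences were −0.07 and 0.06 (adjusted p = 0.234 and 0.322, limma). The actin call was also lost with centring on the median of the probe sets kept in heads (adjusted p = 0.0513, limma). Quantile normalization lost the Gapdh call (adjusted p = 0.12, limma). In bodies, actin 3′ differed by −0.10 (95% interval −0.22 to 0.02, adjusted p = 0.0958, limma), close to the median of all probe sets at −0.10.

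Gapdh 3′ in bodies was 1.53-fold higher in LD than in DD, a difference of 0.61 ± 0.07 on the log2 scale (adjusted p = 9.09e-09, limma). The lowest LD time point, 13.08 at ZT32, lay above the highest DD time point, 13.02 at CT36. Of all tested probe sets in bodies 85.7% passed this test, 38.3% as higher in LD and 47.4% as lower, and 51.2% of kept probe sets differed by more. Without ZT24 the difference was 0.55, and on either replicate alone it lay between 0.54 and 0.68. The gap between 3′ and 5′ signal, described below, also differed between regimes, in spiked-in RNA as well, and its part in this result was not tested. The labels do not say whether LD and DD samples were extracted or labelled together, so regime and processing cannot be told apart.

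Away from the 3′ end the regime differences were larger. Gapdh middle was higher in LD by 0.56 in heads and 0.88 in bodies, and Gapdh 5′ by 1.94 and 1.92, which is 3.83-fold and 3.78-fold. Actin 5′ was higher in LD by 0.89 in heads and 0.51 in bodies. Without CT44 the head values were 1.72 for Gapdh 5′ and 0.78 for actin 5′. Actin middle instead differed by −0.05 in heads (adjusted p = 0.314, limma) and was lower in LD by −0.14 in bodies (adjusted p = 0.0185). In heads 5 of the 6 probe sets passed the test and in bodies again 5 of 6, against the 73% and 85.7% of all probe sets.

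Through the day, the clearest pattern was that of actin in heads under LD. All 3 actin probe sets followed a daily rhythm there, high in the hours after dawn and low around and after dusk. Actin 3′ stood at 12.35 at ZT12 and 12.20 at ZT16, rose to 12.90 at ZT24, and came back to 12.44 at ZT36 and 12.42 at ZT40. On the second day it reached 12.86 at ZT52 and stood at 12.36 at ZT60. The hours near dusk (ZT12, ZT36 and ZT60, mean 12.38 ± 0.05, SD, n = 3) and those at ZT4 of either day, 12.86 on average, did not overlap.

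A 24 h cosine fitted to the 13 time point means gave actin 3′ a trough to peak range of 0.56, or 1.47-fold, with its peak 2.57 h after ZT0 (adjusted p = 0.000166, limma). The middle set gave 0.63 with a peak at 3.03 h (adjusted p = 0.00113), and the 5′ set 0.89 with a peak at 2.66 h (adjusted p = 0.00158). In this arm 37% of all tested probe sets were rhythmic by this test, and 23.9% of kept probe sets had a wider fitted range than actin 3′. On either replicate alone the actin 3′ range was 0.53 to 0.59, and it was called each time.

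Gapdh in the same heads did not pass the rhythm test. The fitted range of Gapdh 3′ was 0.10, or 1.07-fold (adjusted p = 0.462, limma), and the middle and 5′ sets gave 0.21 and 0.40 (adjusted p = 0.167 and 0.109). With arrays entered singly Gapdh 5′ passed, without the replicate number as a block and with it (adjusted p = 0.0303 with the block, limma). Gapdh 5′ was low at ZT12 (9.77) and ZT60 (9.56), while all other time points of the arm lay from 10.04 to 10.38.

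**Figure D2:**
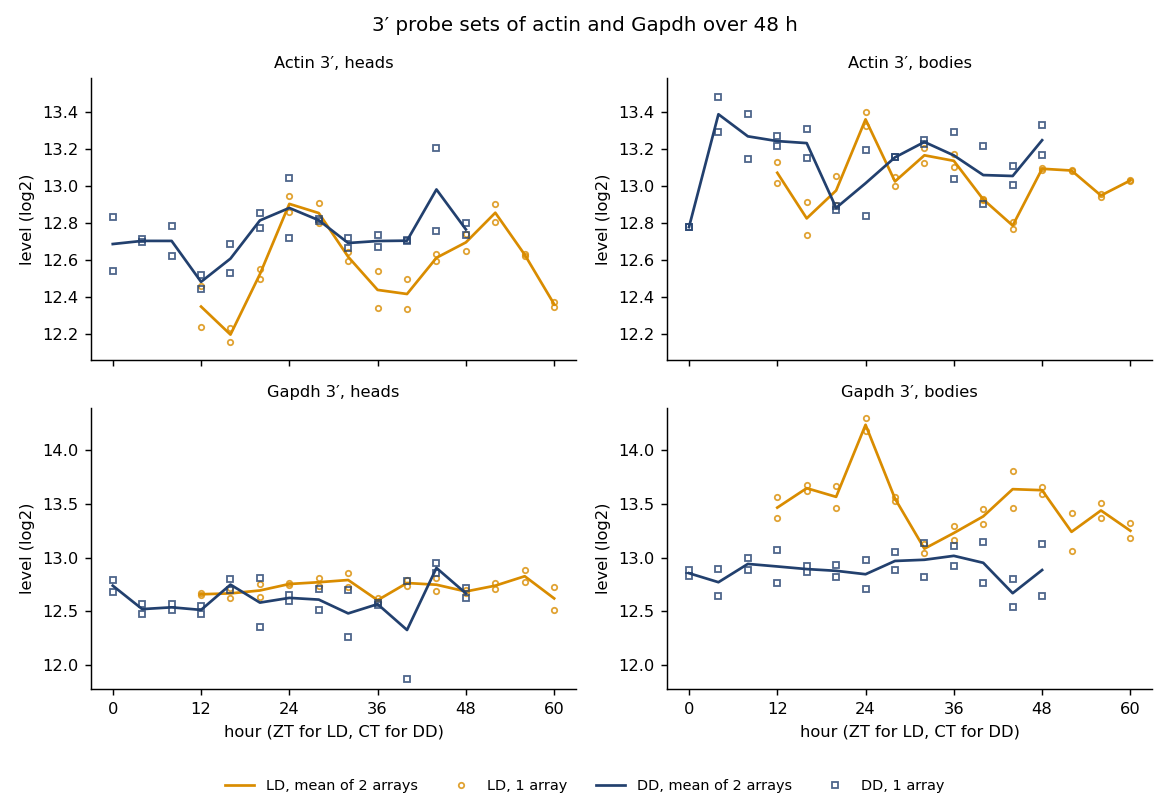
Log2 level of the 3′ probe sets of actin and Gapdh against hour (ZT for LD, orange; CT for DD, blue) in heads and bodies, with each array as a symbol and the mean of 2 arrays as a line. Actin in heads in LD runs between 12.20 and 12.90 with highs at ZT24 and ZT52, Gapdh in heads stays between 12.60 and 12.83 in LD, and Gapdh in bodies in LD peaks at 14.24 at ZT24.

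In heads in constant dark, none of the 6 probe sets passed the rhythm test, where 8.91% of all tested probe sets did. The actin 3′ range was 0.21 (1.16-fold, adjusted p = 0.333, limma) with its fitted peak at 22.99 h, and the Gapdh 3′ range was also 0.21 (adjusted p = 0.435). Lows and highs of actin 3′ were at CT12 (12.48) and CT20 (12.82) on the first day, CT0 to CT20. On the second day, CT24 to CT44, they were at CT32 (12.69) and CT44 (12.98), while CT24 stood at 12.88 and CT36 at 12.70. The 2 arrays at CT44 differed, at 13.21 and 12.76. Without CT44 the actin 3′ range was 0.18 (adjusted p = 0.39, limma).

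Whether actin rhythm differed between LD and DD was tested directly, and it did not pass in heads. The fitted difference in rhythm for actin 3′ was 0.47 from trough to peak (adjusted p = 0.0773, limma), where 2.22% of tested probe sets passed. With single arrays as units it did pass (adjusted p = 0.00475, limma), a fit that treats the 2 arrays of a time point as independent. Heads against bodies gave 0.39 in LD (adjusted p = 0.0767) and 0.49 in DD (adjusted p = 0.191) for actin 3′. None of the 6 probe sets passed between tissues, against 18.6% of all in LD and 4.07% in DD, and none passed between regimes in bodies, against 5.28%.

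In bodies in LD no actin or Gapdh probe set passed the rhythm test, while 16% of all did. Gapdh 3′ came nearest, with a fitted range of 0.54 (1.46-fold) and a peak at 22.03 h (adjusted p = 0.0968, limma). On the first day it stood at 13.65 at ZT16, 13.57 at ZT20, 14.24 at ZT24 and 13.55 at ZT28, so ZT24 alone stood above the early night. On the second day it stood at 13.38 at ZT40, 13.64 at ZT44 and 13.63 at ZT48. Lows were at ZT32 (13.08) on the first day and at ZT36 (13.23) and ZT52 (13.24) on the second. The ZT24 value was seen on both arrays, 14.18 and 14.30, and all 6 probe sets had their highest body LD value at that time point. Without ZT24 the fitted range of Gapdh 3′ was 0.38 (adjusted p = 0.119, limma). Actin 3′ gave a range of 0.22 (adjusted p = 0.422).

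In bodies in DD, 2 middle probe sets passed the rhythm test, actin middle with a range of 0.40 and a peak at 9.04 h (adjusted p = 0.0475, limma) and Gapdh middle with 0.55 and 7.64 h (adjusted p = 0.0112), where 6.71% of all probe sets did. Their 3′ partners did not pass, with ranges of 0.30 for actin (adjusted p = 0.26) and 0.16 for Gapdh (adjusted p = 0.45). The middle sets were high at CT8 and CT32, at 12.11 and 12.08 for actin and at 11.36 and 11.40 for Gapdh. The gap between 3′ and 5′ signal in that arm was smallest at CT32 for actin (2.30) and at CT4 for Gapdh (3.42), and its part in these calls was not tested. Neither call held on either replicate alone, and the actin middle call was lost under 16 of its 22 alternatives.

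A test that takes no shape for the time course asked whether the 13 time points differed by more than their 2 arrays. In heads in LD, the 3 actin sets and Gapdh 5′ passed it (adjusted p = 0.000279 for actin 3′ and 0.0332 for Gapdh 5′, limma), where 30.8% of all did. With the replicate number as a block, 3762 of 7194 probe sets passed in place of 2218, and Gapdh 3′ still did not (adjusted p = 0.297, limma). In heads in DD the 5′ sets passed (0.0176 for actin, 0.0159 for Gapdh), against 35.4% of all, and without CT44 neither did (0.677 and 0.98, limma). In bodies in LD actin 3′, Gapdh 3′ and Gapdh middle passed (0.00753, 0.000504 and 0.0314), against 38.3%. Without ZT24 only Gapdh 3′ did (0.0422), and actin 3′ and Gapdh middle stood at 0.0772 and 0.252 (limma). In bodies in DD actin 5′ alone passed (0.0274), against 22.6%. Gapdh 3′ in bodies in LD ranged 2.23-fold from its lowest to its highest time point (0.56 on the log2 scale without ZT24, against 1.16 with it), and actin 3′ in heads in LD 1.63-fold.

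The second day was compared with the first at 6 matched clock hours per arm, and none of the 6 probe sets passed the test in any arm. For actin 3′ the mean difference was 0.03 in heads in LD (95% interval −0.10 to 0.17), 0.13 in heads in DD (−0.03 to 0.29), −0.07 in bodies in LD (−0.25 to 0.10) and −0.02 in bodies in DD (−0.21 to 0.17). For Gapdh 3′ it was 0.00482 in heads in LD (−0.10 to 0.11), −0.02 in heads in DD (−0.25 to 0.21), −0.17 in bodies in LD (−0.45 to 0.12) and 0.03 in bodies in DD (−0.13 to 0.19). The widest differences were those of Gapdh 5′, −0.71 in bodies in LD (lower at 5 of 6 hours, adjusted p = 0.719, limma) and −0.64 in heads in DD (lower at 5 of 6, adjusted p = 0.386). The pair of CT20 and CT44 carried much of the latter, which was −0.21 without it (adjusted p = 0.499, limma), and the former lay between −0.91 and −0.51 with single pairs left out. Over all tested probe sets this comparison called 0.0278% in heads in LD, 0% in heads in DD, 0% in bodies in LD and 0.0273% in bodies in DD. At an unadjusted p under 0.05, limma gave 1231 of 7194 in heads in DD and 501 of 7331 in bodies in LD, among them 0 and 2 of the 6.

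How steady a transcript was over time differed by arm and by end. The SD of Gapdh 3′ over the 13 time points in heads in LD, 0.07, was larger than that of 4.41% of kept Anopheles probe sets, whose median SD was 0.18. In bodies in DD its SD of 0.09 exceeded 6.29% of them, and in heads in DD 16.7%. In bodies in LD, however, the Gapdh 3′ SD of 0.29 exceeded 68%. Actin 3′ was the reverse in heads, with an SD above 62.5% of probe sets in LD and above 9.92% in DD. In bodies actin 3′ exceeded 22.5% in LD and 37.3% in DD. No single 3′ probe set was thus among the steadiest in all 4 arms. The probe sets tested are not equally bright, and SD can vary with level.

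**Figure D3:**
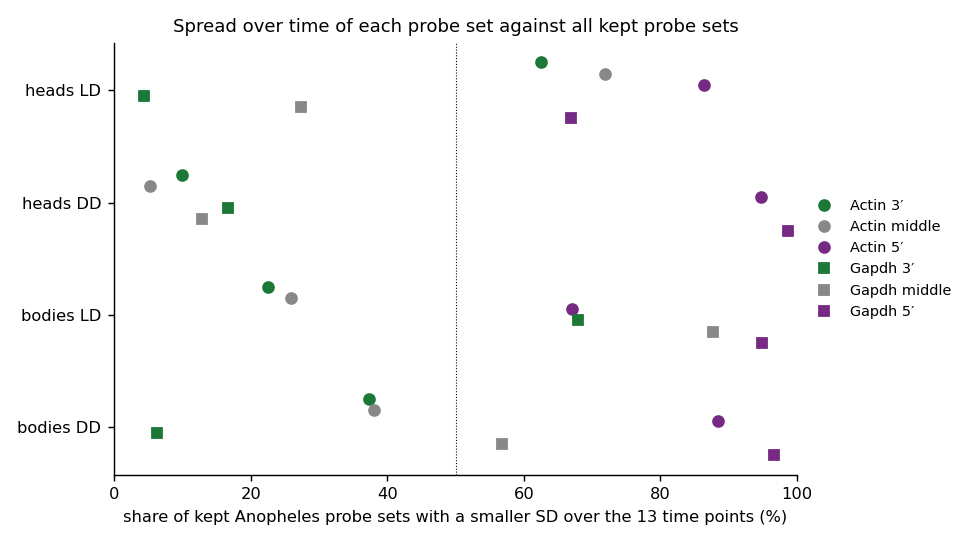
Share of kept Anopheles probe sets (percent, 7188 in heads and 7325 in bodies) whose SD over the 13 time points is smaller than that of each actin (circles) or Gapdh (squares) probe set, by arm; green 3′, grey middle, purple 5′, dotted line at 50%. Gapdh 3′ sits at 4.41% in heads in LD but at 68% in bodies in LD, and the 5′ sets lie between 67% and 98.7%.

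The SD between the 2 arrays of a time point was smaller at the 3′ end than at the 5′ end of the same transcript in each arm. For actin 3′ it was 0.08 in heads in LD, 0.13 in heads in DD, 0.06 in bodies in LD and 0.13 in bodies in DD. For Gapdh 3′ it was 0.07 and 0.23 in heads (LD, DD) and 0.13 and 0.18 in bodies. In DD it exceeded the SD over the 13 time points for Gapdh 3′ in heads (0.23 against 0.14) and bodies (0.18 against 0.09). The same held for actin 3′ in heads in DD (0.13 against 0.12), but not in bodies in DD (0.13 against 0.17). For Gapdh 5′ it was 0.18 in heads in LD, 0.71 in heads in DD, 0.73 in bodies in LD and 0.58 in bodies in DD. The widest pair was ZT52 in bodies, with Gapdh 5′ at 8.23 and 10.52, Gapdh middle at 10.59 and 12.05, and Gapdh 3′ at 13.06 and 13.42. Replicate 2 read higher than replicate 1 at 12 of 13 time points of bodies in LD for Gapdh 5′, Gapdh middle and actin middle, and replicate 1 read higher at 11 of 13 in heads in DD for both 5′ sets. For actin 3′ replicate 2 read higher at 12 of 13 in heads in LD and 10 of 13 in bodies in LD. For Gapdh 3′ replicate 1 read higher at 10 of 13 in heads in LD, and replicate 2 at 11 of 13 in bodies in LD. In DD, replicate 2 read higher at 5 to 7 of 13 for the 3′ sets. A spiked-in control, phe, averaged 3.20 on replicate 1 and 6.61 on replicate 2 in bodies in LD. The part of this replicate difference in the results was not tested beyond the fits with a replicate block. At CT40 in heads the Gapdh 3′ arrays read 11.87 and 12.78, which sets the low of that arm.

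**Figure D4:**
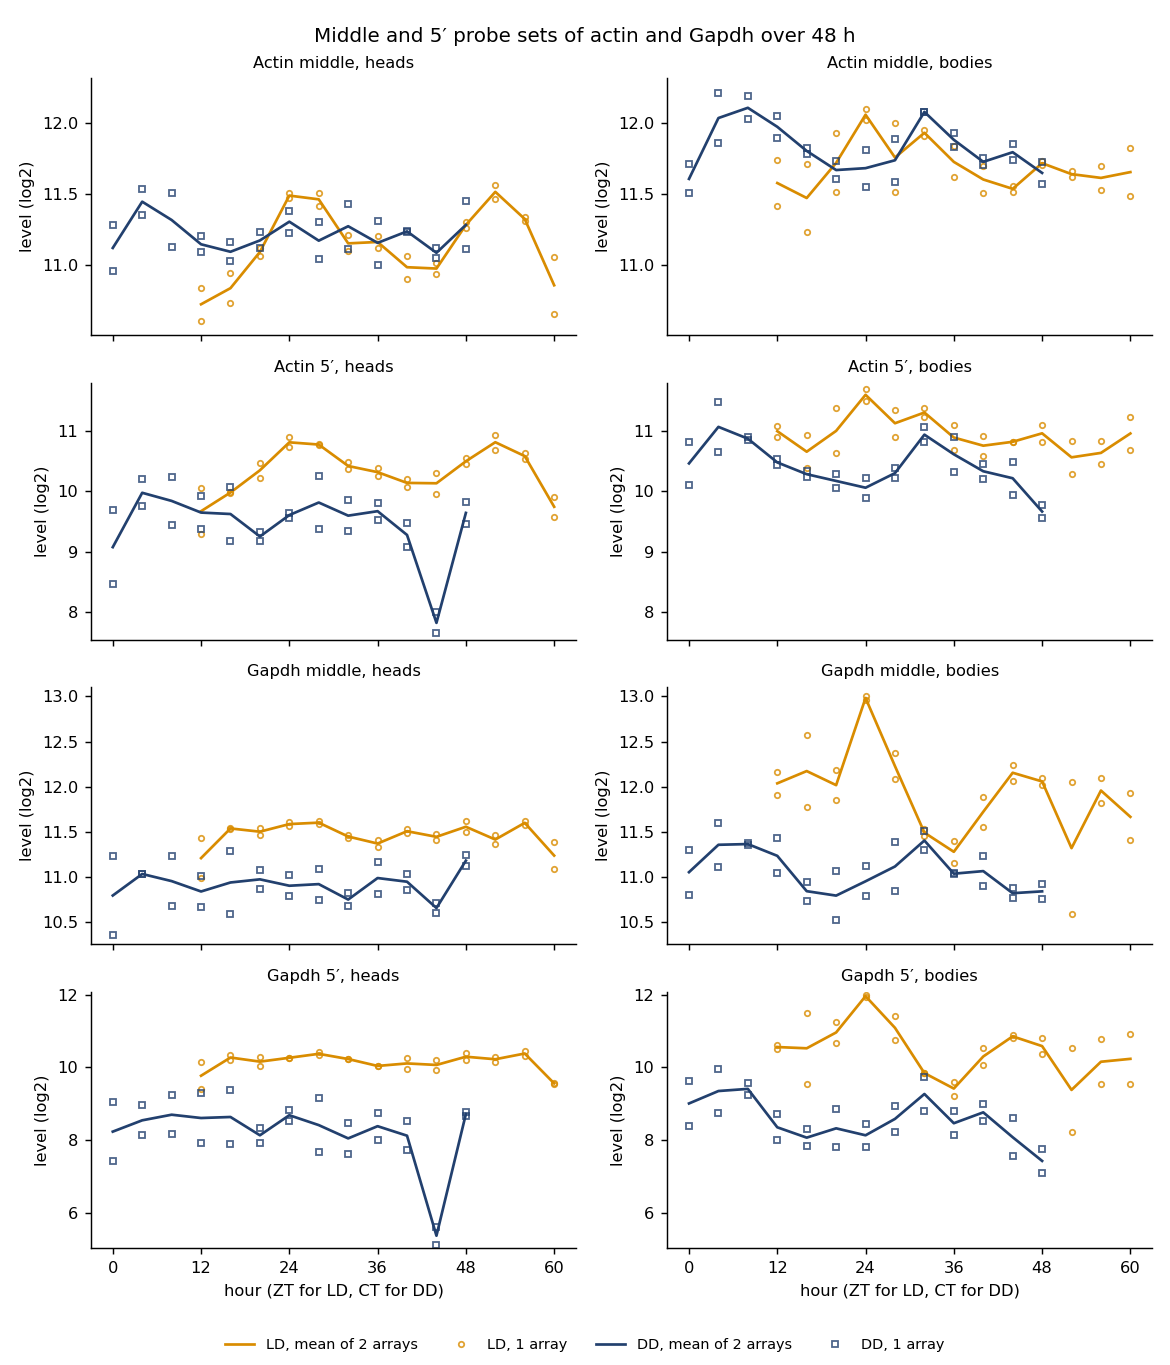
Log2 level of the middle and 5′ probe sets of actin and Gapdh against hour (ZT for LD, orange; CT for DD, blue) in heads and bodies, arrays as symbols and the mean of 2 arrays as a line; the vertical scale differs between rows of panels. Both 5′ sets drop at CT44 in heads, to 7.82 for actin and 5.37 for Gapdh, and LD lies above DD throughout for Gapdh 5′ in heads.

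The ends of each transcript were compared through the 3′ minus 5′ gap, the difference of the 2 log2 levels. The size of a gap includes how well each probe set binds, so only its changes between samples are compared. For Gapdh the gap averaged 2.59 ± 0.20 (SD, n = 13) in heads in LD, with a median of 2.54 and a highest value of 3.06 at ZT60. In heads in DD its lowest value was 3.84 at CT8, the median was 4.19 and the highest 7.54 at CT44. In bodies the gap ran from 2.28 at ZT24 through 3.05 to 3.86 at ZT52 in LD, and from 3.42 at CT4 through 4.56 to 5.46 at CT48 in DD. The LD and DD time points of heads did not overlap, and those of bodies did.

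The gap was narrower in LD than in DD for both transcripts in both tissues. For Gapdh it differed by −1.82 in heads and −1.29 in bodies, and for actin by −1.04 and −0.62 (adjusted p = 3e-05 for each but Gapdh in bodies, 8e-05, two-sided permutation tests over 13 against 13 time points with 100000 resamples, 24 tests, smallest unadjusted p they can give 1e-05). Without CT44 the head values were −1.56 and −0.88. The 3′ minus middle gap of Gapdh differed by −0.43 in heads (adjusted p = 3e-05) and −0.26 in bodies (adjusted p = 0.00724), and that of actin by −0.09 (0.152) and 0.03 (0.464, permutation tests). The wider gap in DD was thus seen in both transcripts. The middle minus 5′ gap differed by −0.95 in heads and −0.66 in bodies for actin and by −1.39 and −1.03 for Gapdh (adjusted p = 3e-05 each, permutation tests), in both more than the 3′ minus middle gap.

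The same direction was seen in RNA that does not come from the mosquito. The spiked-in control dap, a bacterial transcript with a poly-A tail, had a 3′ minus 5′ gap of at most 2.03 in heads in LD and at least 2.38 in heads in DD. In bodies its highest LD value was 1.54 and its lowest DD value 1.74. Another spiked-in control, thr, had a 3′ minus 5′ gap that averaged 0.95 in heads in LD and 2.51 in heads in DD. In bodies the thr gap averaged 1.57 in LD and 4.05 in DD. At CT44 in heads the dap gap of 2.90 stood within the other DD time points, whose highest was 3.22 at CT0, whereas the Gapdh gap of 7.54 compared with 4.51 at the next highest time point and the actin gap of 5.16 with 3.61. Both arrays at CT44 showed it, at 7.83 and 7.24 for Gapdh and at 5.56 and 4.76 for actin. The thr gap in heads in DD was also highest at CT44, at 2.99, with 2.91 at CT48 next.

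**Figure D5:**
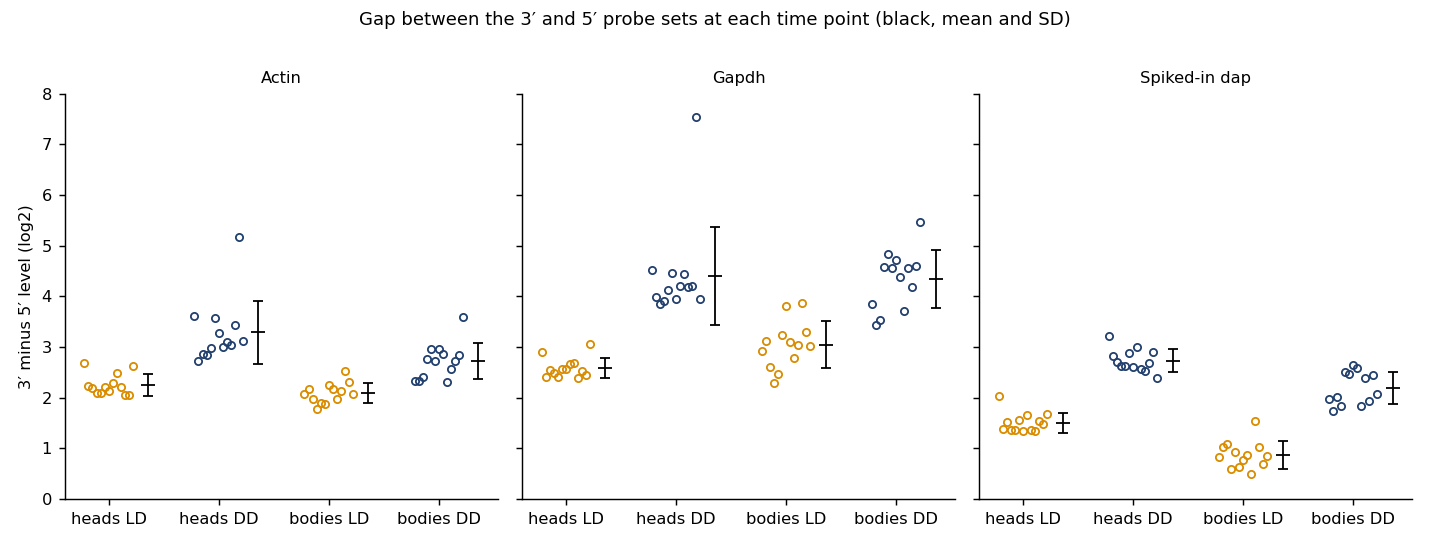
Gap between 3′ and 5′ log2 levels for actin, Gapdh and the spiked-in bacterial dap transcript in the 4 arms, 1 circle per time point (orange LD, blue DD), with mean and SD over 13 time points in black. Gaps in DD lie above those in LD on average in each tissue, and CT44 in heads stands alone at 7.54 for Gapdh and 5.16 for actin but not for dap.

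Between tissues the gaps differed less. In LD the actin gap differed by 0.16 (adjusted p = 0.142, exact sign-flip permutation test over 13 paired differences, smallest p 0.000244) and that of Gapdh was narrower in heads by −0.46 (adjusted p = 0.0134), a call lost on replicate 2 arrays alone (−0.20, adjusted p = 0.184). In DD the actin gap was wider in heads by 0.57 (adjusted p = 0.00724, and 0.43 without CT44, adjusted p = 0.0134), and this call was lost on replicate 1 arrays alone (0.34, adjusted p = 0.236). The Gapdh gap differed there by 0.07 (adjusted p = 0.848, exact permutation test), with values of −0.48 and 0.62 on the single replicates, neither called, and −0.17 without CT44.

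How far the ends of one transcript kept step over time was given by the correlation over the 13 time points of an arm, 40 relations in all with permutation p-values adjusted over them. Time points were shuffled freely, so a daily course shared by both series can by itself give a small p. Actin 3′ and middle ran together in heads in LD, with Pearson r = 0.91 (permutation p = 3e-05, adjusted p = 0.00024) and Spearman rho = 0.93 (p = 4e-05, adjusted p = 0.0004). Without the 2 time points farthest from the actin 3′ median r was 0.90. In heads in DD r was 0.02 (permutation p = 0.96, adjusted p = 0.96) and rho 0.21 (p = 0.483, adjusted p = 0.536), and r was 0.21 without CT12 and CT44.

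For Gapdh, 3′ and middle ran together in bodies in LD, with r = 0.95 (permutation p = 2e-05, adjusted p = 0.00024) and rho = 0.92 (p = 4e-05, adjusted p = 0.0004), and r = 0.92 without ZT24 and ZT32. In bodies in DD r was 0.33 (permutation p = 0.278, adjusted p = 0.337) and rho 0.45 (p = 0.124, adjusted p = 0.172), and r was 0.19 without CT36 and CT44. Gapdh 3′ and 5′ in heads in DD gave r = −0.53 (permutation p = 0.119, adjusted p = 0.176) and rho = 0.14 (p = 0.643, adjusted p = 0.66), and r was 0.19 without CT40 and CT44.

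The actin and Gapdh 3′ minus 5′ gaps of heads in DD gave r = 0.94 (permutation p = 0.00062, adjusted p = 0.00165) and rho = 0.74 (p = 0.00556, adjusted p = 0.0171), and r was 0.58 without CT0 and CT44. Bodies gave r = 0.83 in LD and 0.92 in DD, and heads in LD gave 0.87. All 4 passed by Pearson's r, whereas rho in heads in LD was 0.63 and did not (permutation p = 0.0233, adjusted p = 0.0518). Heads in LD gave r = 0.61 without ZT12 and ZT60. Bodies gave 0.64 in LD without ZT24 and ZT52, and 0.87 in DD without CT32 and CT48. The spiked-in dap gap passed by r in heads in LD alone, with the actin gap (0.68) and the Gapdh gap (0.72, adjusted p = 0.025 each, permutation tests). Those were 0.01 and 0.44 without ZT12 and ZT60. By rho it passed in bodies in DD alone, with the actin gap (0.68, adjusted p = 0.0344, permutation test). The 3′ levels of actin and Gapdh did not pass together in any arm. Their r ran from 0.15 in bodies in DD (permutation p = 0.624, adjusted p = 0.657) to 0.57 in heads in LD (p = 0.0418, adjusted p = 0.0728), with rho 0.23 and 0.55 (adjusted p = 0.522 and 0.0958).

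Among 6075 Anopheles probe sets kept in both tissues, Ag.X.2.0_UTR_a_at had the course most like that of actin 3′, with r = 0.97 over 52 time point means after each arm mean was taken off. Ag.2L.422.0_UTR_s_at came next with 0.70. For Gapdh 3′ these were Ag.3R.167.0_UTR_at with 0.87 and Ag.3L.196.0_CDS_at with 0.67. By the same measure the actin middle set reached 0.76 with actin 3′ and the actin 5′ set 0.33, while Gapdh middle reached 0.71 with Gapdh 3′ and Gapdh 5′ 0.30. The values of all these probe sets come from the same arrays, and r is given as a description. Ag.X.2.0_UTR_a_at averaged 12.53 and 12.73 in heads (LD, DD) and 12.99 and 13.10 in bodies, close to the levels of actin 3′. Ag.3R.167.0_UTR_at averaged 12.69 and 12.58 in heads and 13.42 and 12.83 in bodies, close to those of Gapdh 3′. Whether these 2 probe sets read the same transcripts as the 3′ sets was not tested.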

How the data were processed

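The deposited values are log2 expression levels per probe set, normalized by the authors with GCRMA, per the submitters' processing notes; scanner files were not used here. The 2 arrays of each time point were averaged. Rhythms (24 h cosine), level differences (cosine terms kept) and day differences were fitted with limma 3.58.1 in R 4.3.3 on kept Anopheles probe sets plus the 6, and the test over 13 time points used single arrays. P-values were adjusted by Benjamini-Hochberg over all tested. End gaps and correlations were tested by permutation with numpy 2.4.6, with ranks from scipy 1.17.1. The fits were run on simulated data with time point scatter capped at the median SD and no replicate shift. For the test over 13 time points that scatter was left out. Probe sets with wider scatter, such as the 5′ sets, were thus not covered. The members, the lists and the probe sets named for likeness (the 2 highest correlations per 3′ set) were chosen with earlier results of these data known. The arrays carry no read depth, and their number limits the precision.

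Replicate numbers in the labels were checked for pairing through the correlation of deviations from time point means. All 78 pairs of time points exceeded 0.1 in heads in LD, but only 33 of 78 in heads in DD, 65 in bodies in LD and 29 in bodies in DD, so the numbers met the criterion for pairing (every pair above it) in heads in LD alone. A replicate shift in the other arms is not excluded by this. Alternatives were other scalings, no filter, single replicates, single arrays with and without a replicate block, time points left out (for the test over 13 time points chosen after seeing the data), other cosine terms, unpaired tissues and no cosine terms. Of 15165 reference genes, 0 matched the 6 probe sets by name.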

Additional observations from a re-analysis of the deposited data

Results flagged for a closer look

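The Gapdh head minus body difference itself differed between light regimes by a direct test. For the 3′ set it was −0.49 lower in LD than in DD, and for the middle set −0.32 (limma adjusted p = 1.11e-05 and 0.0176). For the 3′ set it lay between −0.62 and −0.35 on single replicates and was −0.43 without ZT24. For Gapdh 5′ the same quantity was 0.02 (adjusted p = 0.961, limma).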

How the results depend on the processing

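Alternative values were counted for the results of the 3′ sets and the 3′ minus 5′ gaps. Of these, 962 kept their side of the threshold, 24 newly passed, 7 no longer passed and 7 turned direction. A turn was counted only where the main result or the alternative was called, so the 962 include uncalled values that turned direction. Where no cause is given, the cause was not tested. Quantile normalization turned head minus body for actin 3′ (0.32 LD, 0.40 DD), Gapdh 3′ (0.00493 LD, 0.54 DD), actin middle (0.20, 0.26), Gapdh middle (0.29, 0.70), and in LD actin 5′ (0.16) and Gapdh 5′ (0.42). Median centring turned actin 3′ (0.0434 LD, 0.19 DD), Gapdh 3′ in DD (0.30) and Gapdh middle (0.00576 LD, 0.44 DD). LD minus DD in heads no longer passed for Gapdh 3′ with quantile normalization (0.0815) and for actin 3′ with median centring (−0.12). On single replicates these ranged from 0.0598 to 0.19 and from −0.20 to −0.0745. The actin 3′ rhythm difference between tissues in LD passed with quantile normalization (0.47), and its day difference in heads in DD passed without the filter (0.13).

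With single arrays, with the replicate block and without it, these passed: the Gapdh 3′ rhythm in bodies in LD (0.54), the LD against DD rhythm of actin 3′ in heads (0.47) and Gapdh 3′ in bodies (0.70), LD minus DD of actin 3′ in bodies (−0.10), and the head against body rhythm of actin 3′ (0.39 LD, 0.49 DD) and Gapdh 3′ (0.53 LD). In the test over 13 time points, the block left calls in heads in DD and bodies in DD as they were, and actin 5′ (adjusted p = 0.0182) and Gapdh 5′ (0.0242, limma) newly passed in bodies in LD. Fits with single arrays count the 2 arrays of a time point as independent. On single replicates the LD against DD rhythm of Gapdh 3′ in bodies ranged from 0.57 to 0.85. The head minus body gap in LD ranged from 0.0118 to 0.30 for actin and from −0.71 to −0.20 for Gapdh, and in DD from 0.34 to 0.81 for actin.

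Leaving out single time points, the LD against DD rhythm of Gapdh 3′ in bodies ranged from 0.53 to 0.77 and passed without ZT20 (0.77) or ZT52 (0.71). LD minus DD of actin 3′ in bodies ranged from −0.14 to −0.0844 and passed without ZT24 (−0.14) or CT0 (−0.13). The actin 3′ rhythm difference between tissues in LD ranged from 0.35 to 0.47 (passed without ZT24), and the actin gap between tissues in LD from 0.12 to 0.21 (passed without ZT52). The actin 3′ range over time points in bodies in LD no longer passed without ZT24 (0.38; 0.57 without ZT52), an alternative chosen after seeing the data.

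Some counts over all probe sets moved by over 1.5 times. Rhythm calls in heads in DD were 641, against 358 with no filter, 339 on replicate 2, 1653 with single arrays (1674 with the block), 317 with 12 h terms and 395 without CT12. Those in bodies in LD were 1170, against 770, 2112 and 2246, and in bodies in DD 492, against 255, 275, 268, 1123, 1102 and 287. With no filter, LD minus DD gave 9661 in place of 5251 in heads and 16654 in place of 6282 in bodies, and head minus body 16468 in place of 7850 in LD and 18329 in place of 7808 in DD. The change of head minus body with regime gave 17306 in place of 6536. Rhythm differences between regimes were 160 in heads, against 98 on replicate 2, 249 without CT8 and 685 and 779 with single arrays, and 387 in bodies, against 248, 209, 224, 1196 and 1220. Between tissues they were 1569 in LD, against 1000 on replicate 1, 2539 and 2837, and 344 in DD, against 185, 195, 194, 1160 and 1184. Calls over time points in heads in LD went from 2218 to 3762 with the block. Day differences numbered 2 in LD heads (0 to 226) and 2 in DD bodies (0 to 34). Those in heads in DD went from 0 to 6916 with no filter and to 444 and 349 with single arrays.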
